A study of Mus musculus with 6 samples.

Results

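The cells described here are the neutrophils of a HOXA9 OFF culture at 96 h that carried S100a8 transcripts but little or no Ltf, the transcript of lactoferrin. They were chosen within 1 single-cell library, whose reads carry a molecular barcode for each captured transcript (unique molecular identifier, UMI), and the values are numbers of such UMIs. A barcode was kept with 200 to 6000 genes and at most 10% of its UMIs from mitochondrial genes, and a kept cell was taken as Ltf-low S100a8-positive when it held fewer than 3 Ltf UMIs and at least 20 S100a8 UMIs. The rule gave 659 of the 1510 kept cells of the library (43.6%), out of 5872 kept cells in the series. The 648 cells with at least 3 Ltf UMIs, called Ltf-high here, served for comparison, and 203 kept cells with little of either transcript are called the other cells. The question is whether the Ltf-low cells stand earlier or later in maturation than the Ltf-high cells.

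The library came from cultured mouse granulocyte-macrophage progenitors (strain given as C57BI/6) that carry HOXA9 fused to an estrogen receptor domain (Hoxa9::ER) and a lysozyme-GFP reporter, grown in RPMI medium with serum and stem cell factor. Estradiol keeps the fusion protein active and the cells in self-renewal. In the HOXA9 OFF arm a control clone was washed and grown without estradiol for 0, 48 or 96 h, and the other arm of the series, CAF-1 OFF, kept estradiol while IPTG switched on a hairpin against Chaf1b. Each arm is a single clone with 1 library per time, so cells are not replicates of a condition, nothing below was tested between groups, and values describe this library only.

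A neutrophil fills its granules in a fixed order as it matures. Primary (azurophilic) granule proteins such as myeloperoxidase and the serine proteases are made in dividing promyelocytes, secondary (specific) granule proteins such as lactoferrin, cathelicidin and lipocalin-2 in myelocytes and metamyelocytes, and tertiary (gelatinase) granule proteins in band cells. Transcription of each set fades as the next rises, with overlap between them, and mature cells turn to chemotactic receptors, chemokines and interleukin-1. A neutrophil with little lactoferrin RNA can thus be one that has yet to reach the secondary granule stage or one that has left it.

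The chosen transcripts themselves are a description of the rule. Ltf was at 0 UMIs in 442 of the Ltf-low cells (67.1%), at 1 UMI in 156 and at 2 UMIs in 61, while 44 cells with at least 20 S100a8 UMIs lay just outside the limit, at 3 Ltf UMIs. The Ltf-high cells held a median of 13 Ltf UMIs, from 3 to 107. At the S100a8 limit, 11 Ltf-low cells had 20 to 29 UMIs and 51 cells outside it had 10 to 19. S100a8 made up a median of 7.85% of the UMIs of an Ltf-low cell and 8.91% of those of an Ltf-high cell. In the other cells that share was 0.209%. The pooled Ltf level, in UMIs per 1000000 UMIs of the group (CPM), was 206.5 CPM in the Ltf-low cells and 102.7 CPM in the other cells.

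The Ltf-low cells were slightly shallower. They held a median of 1852 UMIs per cell (from 657 to 11697) and 763 genes, against 2099 UMIs (from 671 to 13329) and 753 genes in the Ltf-high cells. The mitochondrial share had a median of 1.94% in the Ltf-low cells and 1.63% in the Ltf-high cells. Together the Ltf-low cells held 1346237 UMIs. Only 16 kept barcode sequences occurred in more than 1 library, 6 of them among the Ltf-low cells and 1 among the Ltf-high cells. In the HOXA9 OFF library at 48 h the same rule found 219 cells beside 76 cells with at least 3 Ltf UMIs. At 0 h and in the 3 CAF-1 OFF libraries it found 0 cells of either kind, and no kept cell there held an Ltf UMI.

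By its other markers the group carried the transcripts of neutrophils. S100a9, the partner of S100a8 in calprotectin, stood at 49866 CPM (95% Poisson interval 49489.9 to 50245, counting error only, as for all intervals here) against 1541 CPM in the other cells. Itgam, the integrin chain CD11b, stood at 203.5 CPM against 172.2 CPM in the other cells, so it set the group apart little. Cxcr2, the chemokine receptor of mature neutrophils, was at 213.9 against 33.2 CPM and Csf3r, the G-CSF receptor, at 206.5 against 86.1 CPM. Of the markers of eosinophils, Prg2 stood at 95.1 CPM, far under the 15266 CPM of the other cells, and Epx was at 0 UMIs. Markers of mast cells and basophils were at 0 UMIs for 7 of 10 genes, and the lists of erythroid and lymphoid genes and of genes not used by blood cells summed to 1.49 and 0 CPM.

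Between the groups, 3839 genes had a mean of at least 20 CPM, Ltf and S100a8 aside. Of these, 87 (2.27%) were at least 2-fold higher and 51 (1.33%) at least 2-fold lower in the Ltf-low cells, on a scale of log2(CPM + 10), which understates the change of low genes. The ratio of the median gene was not at 0 but at 0.19 on this log2 scale. With the median gene set to 0, the counts became 57 higher and 79 lower. Ratios below are those of the totals, and 0.19 is the value to read them against.

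The secondary granule genes were lower, with Ngp and Camp far ahead of the rest. Of 12 genes of the list, which leaves out Ltf, 10 passed the level, 6 of them were at least 2-fold lower and 0 higher, and their median log2 ratio was -1.16. Ngp, which encodes neutrophilic granule protein, was at 1519.8 CPM (interval 1455 to 1587) in the Ltf-low cells and at 24991 CPM (interval 24740 to 25244) in the Ltf-high cells, a 16.4-fold difference. Camp, the cathelicidin precursor, was at 1088 CPM and 8673 CPM, which is 7.97-fold lower. Lcn2, the iron-scavenging lipocalin-2, was at 4539 and 9325 CPM, and Anxa1, the anti-inflammatory annexin A1, at 2031 and 5464 CPM. The other 2 of the 6 were Itgb2l, at 62.4 and 207.1 CPM, and Wfdc21, at 395.9 and 981.4 CPM. Not every gene of the list followed. Chil3, a chitinase-like lectin, was at 8545 and 11118 CPM (log2 ratio -0.38), Ifitm6 at 2147 and 2343 CPM, and Hp, haptoglobin, was higher in the Ltf-low cells at 1357 against 904.2 CPM (log2 ratio 0.58). The summed list came to 21821 CPM in the Ltf-low cells and 64297 CPM in the Ltf-high cells, a ratio of 0.339 (exact binomial interval 0.335 to 0.344). In the other cells it was 4741 CPM.

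**Figure D1:**
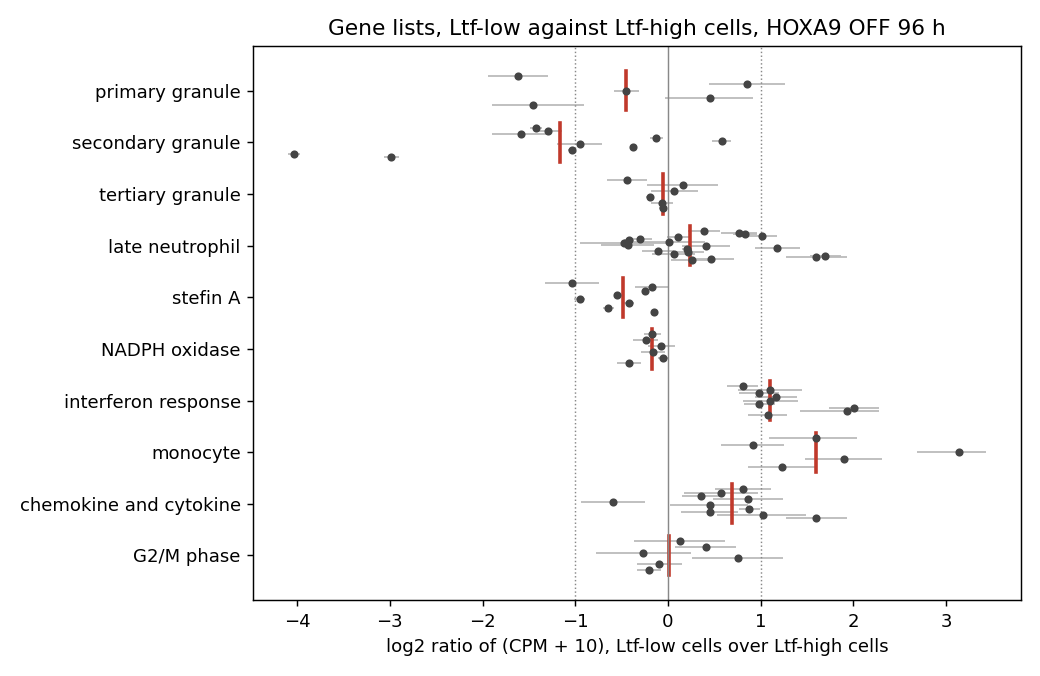
Log2 ratio of (CPM + 10) between the Ltf-low and the Ltf-high cells of the HOXA9 OFF 96 h library, for the genes of 10 lists that passed the level. Each point is 1 gene with its counting interval, red bars are list medians and dotted lines mark 2-fold. Ngp and Camp lie at -4.03 and -2.98, the 6 tertiary granule genes stay within 2-fold, and the 9 interferon genes all lie above 0.

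Ltf, Camp and Ngp lie on 1 chromosome, and their upstream sequences are shown because these transcripts define the difference. In GRCm38.p6 Camp spans chr9:109847377-109849456, Ngp chr9:110419808-110423012 and Ltf chr9:111019292-111042766. Nme6, the neighbour of Camp at chr9:109832722-109842974, was among the 15 largest falls, at 15.6 against 78.5 CPM. Ccrl2, a chemerin-binding receptor next to Ltf at chr9:111054834-111057518, was among the 15 largest rises, at 81.0 against 16.5 CPM, so the neighbours of these genes went opposite ways. Reads of adjacent genes may be hard to assign. The 250 bases before each RefSeq start (GRCm38.p6) were searched on both strands for the core TTNCNNAA that C/EBP factors bind, and matches are in capitals. The Ngp window is chr9:110419558-110419807 on the plus strand, that of Ltf chr9:111019042-111019291 on the plus strand and that of Camp chr9:109849457-109849706 on the minus strand.
Ngp: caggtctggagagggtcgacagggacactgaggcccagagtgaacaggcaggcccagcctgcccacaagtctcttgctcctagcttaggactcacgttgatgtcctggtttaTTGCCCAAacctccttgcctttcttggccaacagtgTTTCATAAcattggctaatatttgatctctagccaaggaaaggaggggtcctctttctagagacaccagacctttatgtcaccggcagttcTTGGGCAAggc
Ltf: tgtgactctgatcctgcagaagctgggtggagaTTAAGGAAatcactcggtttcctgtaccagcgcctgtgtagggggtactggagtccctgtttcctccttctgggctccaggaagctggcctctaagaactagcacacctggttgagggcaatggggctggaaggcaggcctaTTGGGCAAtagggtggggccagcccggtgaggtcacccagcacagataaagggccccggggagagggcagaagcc
Camp: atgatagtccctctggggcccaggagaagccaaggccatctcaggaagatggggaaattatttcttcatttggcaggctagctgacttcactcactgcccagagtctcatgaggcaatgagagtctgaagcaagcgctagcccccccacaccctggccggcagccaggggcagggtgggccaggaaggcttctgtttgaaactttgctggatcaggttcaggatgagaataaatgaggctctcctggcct

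The Ngp window held 3 matches and the Ltf window 2. The same 8 letters, TTGCCCAA read on 1 strand or the other, occurred in the Ngp window 138 and 11 bases before the start and in the Ltf window 75 bases before it. The Camp window held 0 matches. The core is short and common: 40.3% of 27025 genes with such a window held it, against 8 of the 9 secondary granule genes with a window, 7 of the 14 largest falls, 5 of the 10 largest rises and 5 of the 8 interferon list genes with one. A match is a description of the letters, not a binding site. Cebpe, the C/EBP factor needed for secondary granules, was at 412.3 CPM in the Ltf-low cells and 795.4 CPM in the Ltf-high cells (log2 ratio -0.93).

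Of the 15 largest falls, 11 were lower still in the other cells than in the Ltf-low cells, as were 1576 of all 3839 genes. Ly6g, the classical surface antigen of mouse neutrophils, was at 261.5 against 820.5 CPM. Lta4h, the hydrolase that makes leukotriene B4, was at 22.3 CPM (interval 15.04 to 31.8) against 232.8 CPM (interval 209.2 to 258.4). Ffar2, a receptor for short-chain fatty acids, was at 11.1 against 101.6 CPM and Tmem216 at 5.94 against 91.7 CPM. Fcnb, a ficolin of early neutrophil granules, was at 59.4 against 202.5 CPM. Some of these were higher still in the 48 h cells with S100a8, where Lta4h was at 341.1 CPM, Tmem216 at 211.6 CPM, Ffar2 at 124.9 CPM and Fcnb at 980.4 CPM. The falls further took in Olfml2b, AA467197, Golim4, Trp53inp2, Syne1 and Lbp, with log2 ratios from -2.15 to -1.47.

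The secondary granule genes differed by degree within the Ltf-low cells as well. Over cells with at least 20 S100a8 UMIs, Ngp rose with each step of Ltf, from 1078 CPM in cells at 0 Ltf UMIs to 1843 CPM at 1 UMI, 3637 CPM at 2 UMIs and 5937 CPM at 3 to 4 UMIs, and reached 47178 CPM at 40 to 107 UMIs. Lcn2 went from 4291 to 12738 CPM and Anxa1 from 1901 to 8377 CPM between the ends of the same scale. No break lay at the limit of 3 UMIs for these genes. Lta4h did step there, from 23.0 CPM at 2 Ltf UMIs to 133.3 CPM at 3 to 4. Ngp was at 0 UMIs in 217 of the 659 Ltf-low cells (32.9%) and in 23 of the 648 Ltf-high cells (3.55%), and the tenth of the Ltf-low cells richest in it held 53.4% of their Ngp UMIs.

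**Figure D2:**
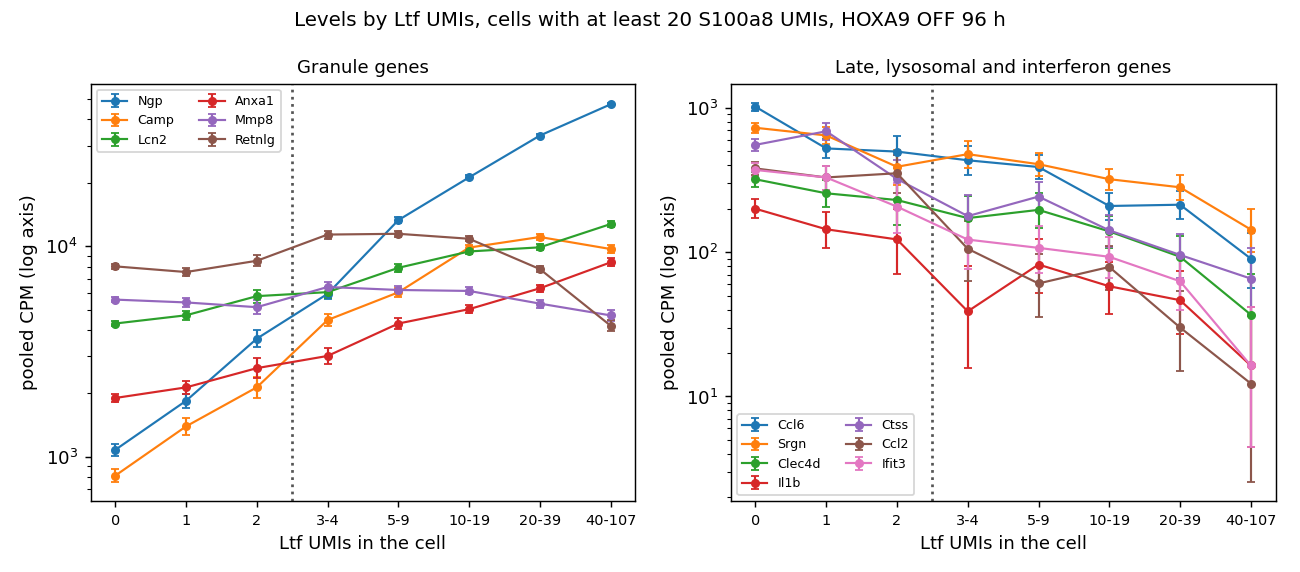
Pooled CPM (log axis) of 13 genes in cells with at least 20 S100a8 UMIs, grouped by the Ltf UMIs of the cell, with exact Poisson intervals; the Ltf-low cells lie left of the dotted line. Ngp goes from 1078 to 47178 CPM, Mmp8 stays between 4689 and 6398 CPM, and Ccl6 goes from 1018 to 90.2 CPM.

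The genes of the tertiary granule list were at much the same level in both groups. Mmp8 and Retnlg made up most of its sum of 14630 CPM in the Ltf-low cells, so the sum says little of the other genes. Which granule holds each protein was not measured, so Mmp8 here and Anxa1 in the secondary list stand by assignment only. Of 8 genes, 6 passed the level and 0 were 2-fold higher or lower, and the median log2 ratio was -0.06. Mmp8, neutrophil collagenase, was at 5487 CPM (interval 5363 to 5614) in the Ltf-low cells and 5689.9 CPM (interval 5570.4 to 5811) in the Ltf-high cells. Mmp9, gelatinase B, was at 763.6 and 798.7 CPM and the membrane protease Adam8 at 168.6 and 160.3 CPM. Retnlg, a resistin-like protein of mature neutrophils, was at 7944 and 9097 CPM, and Itgam was lower, at 203.5 and 280.3 CPM (log2 ratio -0.44). Mmp25 and Lyz2 were listed at 0 UMIs in both groups.

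Both groups stood far above the 48 h culture in these genes. In the 273 cells of the 48 h library with at least 20 S100a8 UMIs the tertiary list summed to 616.9 CPM, against 14630.4 CPM in the Ltf-low cells and 16082 CPM in the Ltf-high cells at 96 h. The 48 h cells that met the same limits had Mmp8 at 248.1 CPM and Retnlg at 12.2 CPM. The Ltf-low cells of 96 h thus had 22.1-fold the Mmp8 level of the Ltf-low cells of 48 h.

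Retnlg was uneven over the cells of both groups, while Mmp8 was not. Its quartiles over the cells were 1 and 28 UMIs, with a median of 2, and 150 cells (22.8%) held 0. For Mmp8 the quartiles were 7 and 15 UMIs, with a median of 10, and 5 cells held 0. In the Ltf-high cells Retnlg had quartiles of 2 and 34 UMIs, a median of 12 UMIs, and was at 0 in 62 cells (9.57%). With each cell thinned to 1000 UMIs, 63.3% of 643 Ltf-low cells (exact binomial interval 59.4% to 67.0%) and 79.8% of 634 Ltf-high cells (interval 76.5% to 82.9%) held a Retnlg UMI, against 24.4% of 197 other cells. Along Ltf, Retnlg was highest at 5 to 9 UMIs, at 11447 CPM, and fell to 4189 CPM at 40 to 107 UMIs, below the 8016 CPM of the cells at 0. The cells with the most lactoferrin RNA thus had less Retnlg than those with none.

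The list of late neutrophil genes stood a little higher in the Ltf-low cells. Of 20 genes, all passed the level, 4 were at least 2-fold higher and 0 lower, and the median log2 ratio was 0.24, which is close to the 0.19 of the median gene. The summed list was 14958 and 13657 CPM, a ratio of 1.10 (interval 1.07 to 1.12). What set the list apart were its 4 higher genes. Ccl6, a CC chemokine, was at 842.3 against 252.6 CPM, and Il1b, the interleukin-1β precursor, at 178.3 (interval 156.4 to 202.3) against 52.1 CPM (interval 41.3 to 64.9). Clec4d, a C-type lectin receptor for mycobacterial glycolipid, was at 294.9 against 124.7 CPM. It was no higher than in the other cells, at 293.1 CPM there. Clec4d had also been present at 0 h, at 74.5 CPM, and was at 6.75 CPM in the 48 h cells with S100a8. Srgn, the granule proteoglycan serglycin, was at 673.7 against 327.8 CPM. Srgn was not late in this culture, at 1279.7 CPM at 0 h and 834.1 CPM in the 48 h cells with S100a8, and it was higher with low Ltf at 48 h too, at 944.8 against 366.1 CPM.

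The chemotactic receptors of the same list scarcely moved. Cxcr2 was at 213.9 and 176.8 CPM, and Fpr1, the formyl peptide receptor, at 452.4 and 386.5 CPM. Csf3r was at 206.5 and 147.1 CPM (log2 ratio 0.46). Mxd1 and Stfa2l1 had log2 ratios of -0.43 and -0.42. All of them lay above their 48 h level, where Fpr1 was at 12.2 CPM and Cxcr2 at 16.3 CPM in cells meeting the same limits.

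Along the Ltf scale the late list as a whole went from 15294 CPM at 0 Ltf UMIs to 14372 CPM at 3 to 4 and 11939 CPM at 40 to 107, and Cxcr2 was at 210.2, 216.6 and 110.7 CPM in the same steps. The 4 higher genes differed more between the ends of the scale. Ccl6 went from 1018 CPM at 0 Ltf UMIs to 90.2 CPM at 40 to 107, Clec4d from 319.8 to 36.9 CPM, Srgn from 727.6 to 143.4 CPM and Il1b from 199.9 to 16.4 CPM. The order held within the Ltf-low cells for Ccl6, at 1018, 523.3 and 497.7 CPM with 0, 1 and 2 Ltf UMIs. With cells thinned to 1000 UMIs, a Ccl6 UMI was found in 41.1% of Ltf-low cells (interval 37.2% to 44.97%), 17.5% of Ltf-high cells (interval 14.6% to 20.7%) and 27.4% of other cells, and without thinning in 54.5%, 31.6% and 48.3%. For Il1b the thinned shares were 16.95%, 4.26% and 9.14%, and the unthinned ones 23.1%, 8.49% and 17.7%.

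**Figure D3:**
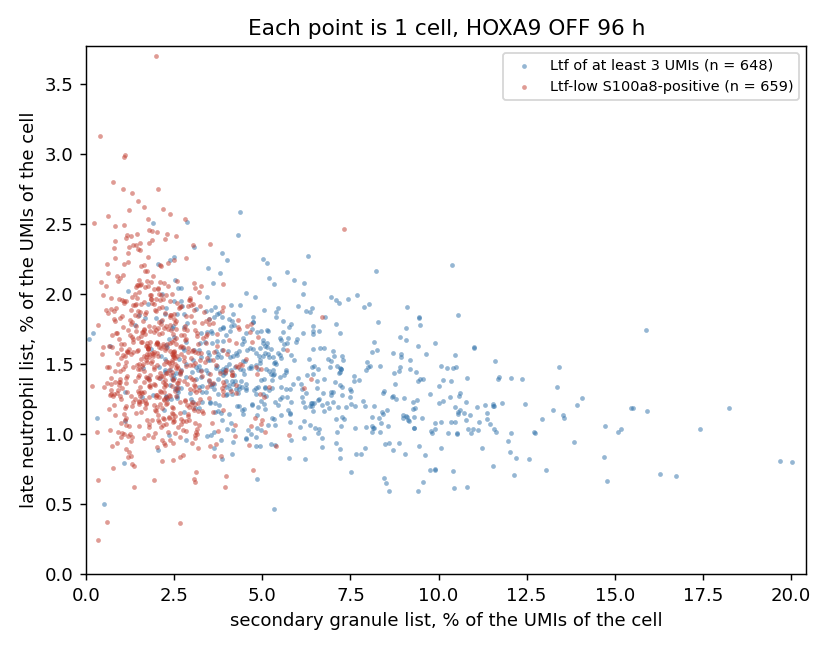
Share of the UMIs of each cell from the secondary granule list (horizontal axis, %) and the late neutrophil list (vertical axis, %), for 659 Ltf-low and 648 Ltf-high cells of the HOXA9 OFF 96 h library. The Ltf-low cells gather at the left, with a median of 2.08% on the horizontal axis against 5.51%, and overlap widely on the vertical axis, with medians of 1.53% and 1.38%.

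Cell by cell, the groups were separated by the secondary granule list and overlapped on the late list. The secondary list made up a median of 2.08% of the UMIs of an Ltf-low cell (quartiles 1.44% and 2.82%) and 5.51% of those of an Ltf-high cell (quartiles 3.87% and 8.34%). Of the Ltf-low cells, 604 (91.7%) lay under the lower quartile of the Ltf-high cells. The late list made up 1.53% (quartiles 1.27% and 1.81%) and 1.38% (quartiles 1.16% and 1.61%), and 63.7% of the Ltf-low cells lay over the median of the Ltf-high cells. The tertiary list had medians of 1.03% and 1.39%, and 39.2% of the Ltf-low cells lay over the Ltf-high median.

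The early programme was nearly silent in both groups. Of 9 primary granule genes 5 passed the level, 2 were lower and 0 higher, with a median log2 ratio of -0.45. The summed list was 742.1 CPM in the Ltf-low and 1097 CPM in the Ltf-high cells, most of it from the tetraspanin Cd63, at 548.2 and 751.9 CPM, and it was 8647 CPM in the 48 h cells that met the same limits. Elane, neutrophil elastase, was at 4.46 and 4.62 CPM, and Prtn3, proteinase 3, at 37.9 and 25.1 CPM. In the 48 h cells of the same limits they stood at 690.0 and 2478 CPM. Of the Prtn3 UMIs of the Ltf-low cells at 96 h, 96.1% lay in the 56 cells with the lowest S100a8 share, described further on. Mpo, myeloperoxidase, was at 6.69 and 35.6 CPM at 96 h, but 53 of the 54 UMIs behind the second value came from 1 cell.

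Dividing cells were rare as well. The S phase genes summed to 222.8 and 227.5 CPM, with 2 of 25 genes past the level and neither 2-fold different. The G2/M genes summed to 1033 and 1112 CPM, mostly from Hmgb2, a chromatin protein, at 650.7 and 749.9 CPM, with 6 of 25 genes past the level and 0 called. At 48 h the G2/M sum was 4285 CPM in the cells of the same limits. With cells thinned to 1000 UMIs and 4 genes of high level left out after their values were seen (Hmgb2, Slbp, Cks2 and Tubb4b), 1.40% of the Ltf-low cells (interval 0.642% to 2.64%) and 2.37% of the Ltf-high cells held 2 or more UMIs of the cycle lists, against 39.9% of 218 Ltf-low cells at 48 h. The shares at 96 h were 3.28% and 3.51% with 1500 UMIs and 6.98% and 6.94% without thinning. The progenitor list summed to 61.7 and 59.4 CPM, and to 1318 CPM at 0 h.

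**Figure D4:**
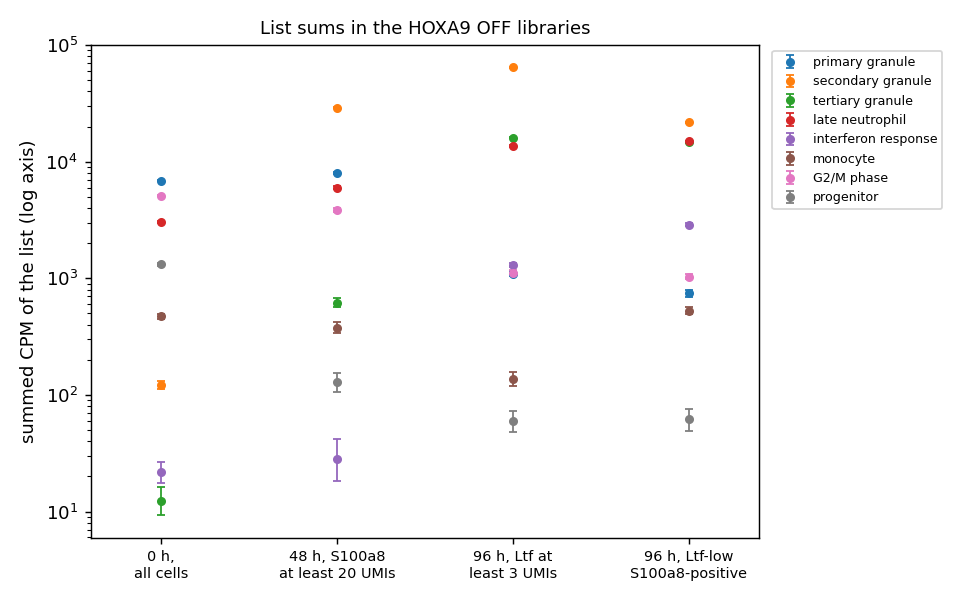
Summed CPM (log axis) of 8 gene lists in all cells at 0 h, the 48 h cells with at least 20 S100a8 UMIs, and the Ltf-high and Ltf-low cells at 96 h, with exact Poisson intervals. The primary granule and G2/M lists lie far lower at 96 h in both groups, the tertiary list rises from 616.9 CPM to 16082 and 14630.4 CPM, and the secondary list is at 64297 CPM in the Ltf-high and 21821 CPM in the Ltf-low cells.

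Other neutrophil genes were shared or slightly lower. All 8 stefin A genes, which encode cysteine protease inhibitors, had ratios under 0, as did 29.1% of all genes. Of the stefin A genes 1 was at least 2-fold lower (BC117090, at 88.4 against 191.3 CPM), and their median log2 ratio was -0.48. Their sum was 72068 and 91932 CPM. Stfa1, Gm5483 and BC100530 are nearly identical, so the single values are uncertain. The 6 NADPH oxidase genes, of the enzyme behind the respiratory burst, lay between -0.42 and -0.05. Of the S100 family, S100a9 had a log2 ratio of -0.43, S100a6 of 0.43 and S100a11 of 0.19, and S100a10, at 47.5 against 17.8 CPM, was at least 2-fold higher. Glycolysis genes had a median log2 ratio of 0.07, with 0 of 11 called. Of the late transcription factors 0 of 9 were called, with Cebpb at 474.7 against 265.1 CPM and Spi1, the PU.1 factor, at 1111 and 1075 CPM. Of the early ones 0 of 3 past the level were called.

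The genes that were higher in the Ltf-low cells were of another kind. Interferon response genes were the most even group, with 9 of 10 past the level, 6 of the 9 at least 2-fold higher, 0 lower and a median log2 ratio of 1.10, and 9 of 9 over 0 where 70.9% of all genes were. Ifit3, an antiviral protein of infected cells, was at 344.7 CPM (interval 314.0 to 377.5) against 78.5 CPM (interval 65.0 to 93.9), and Ifit2 at 43.1 against 3.96 CPM. Irf7, the factor that amplifies the interferon response, was at 342.4 against 147.1 CPM and Isg15, a ubiquitin-like modifier, at 581.6 against 288.9 CPM. The summed list came to 2889 CPM (interval 2799 to 2981) against 1301 CPM (interval 1244 to 1359), a ratio of 2.22 (interval 2.10 to 2.35). It was 28.1 CPM in the 48 h cells with S100a8 and 4008 CPM in the other cells of 96 h, so all 3 sets of cells of the later culture carried it.

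These transcripts were spread over many cells. With each cell thinned to 1000 UMIs, 22.2% of the Ltf-low cells (interval 19.1% to 25.7%), 7.57% of the Ltf-high cells (interval 5.63% to 9.91%) and 24.9% of the other cells held 5 or more UMIs of the list. Without thinning the shares were 39.8%, 22.2% and 53.2%, at median depths of 1852, 2099 and 2973 UMIs. The tenth of the Ltf-low cells richest in the list held 42.2% of its UMIs, and that of the Ltf-high cells 44.98%. The list sum went down along the Ltf scale, from 3015 CPM at 0 UMIs to 2728 CPM at 1, 2458 CPM at 2, 1694 CPM at 3 to 4 and 680.4 CPM at 40 to 107.

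The upstream bases of Ifit3 are shown for the motif that such genes share. The interferon-stimulated response element was searched as GAAANNGAAA on both strands, and matches are in capitals. The window is chr19:34583279-34583528 on the plus strand (GRCm38.p6, RefSeq).
Ifit3: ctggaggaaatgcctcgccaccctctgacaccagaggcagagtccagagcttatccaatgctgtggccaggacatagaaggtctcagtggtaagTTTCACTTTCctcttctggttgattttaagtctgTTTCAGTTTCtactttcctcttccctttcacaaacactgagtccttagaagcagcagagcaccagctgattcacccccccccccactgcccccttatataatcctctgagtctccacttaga

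Both matches lie on the minus strand, 156 and 122 bases before the start. Of the 8 interferon list genes with a window, 5 held the motif, as did 2 of the 10 largest rises with one, 0 of the 14 largest falls and 3.46% of all genes. The windows were taken from the reference, and nothing was measured at them here.

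The 15 largest rises held several genes known from monocytes and macrophages. Ms4a6c, a membrane protein of monocytes, was at 107.0 CPM (interval 90.2 to 125.9) against 3.30 CPM (interval 1.07 to 7.70), from 144 and 5 UMIs. The chemokines Ccl9 and Ccl2 were at 528.9 against 83.8 CPM and at 364.7 against 55.4 CPM. Ccl9 already stood at 1202 CPM at 0 h and Ly6e at 461.3 CPM, while Ccl2 was at 1.43 and Ms4a6c at 5.49 CPM there. Ctss, the lysosomal protease cathepsin S, was at 565.3 against 140.5 CPM, and Fcgr1, the high-affinity IgG receptor, at 51.3 against 5.94 CPM. Clec4n and Clec4a3, both C-type lectin receptors, had log2 ratios of 2.19 and 1.99, and F13a1, Pld4, Dpep2, Ly6e, Wfdc17 and Apoc1 lay between 1.78 and 2.47. Of the monocyte list, 5 of 10 genes passed the level and 4 were at least 2-fold higher, with Csf1r, the receptor that defines the lineage, at 111.4 against 41.6 CPM. Ly86 was at 0.743 CPM in the Ltf-low cells.

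Markers of other cells moved with these genes. Of the 15 largest rises, 14 were higher in the other cells than in the Ltf-low cells, and of all 87 genes called higher 72 were (82.8%), against 58.9% of all genes tested. In the other cells Ms4a6c stood at 980.6 CPM, Ccl2 at 950.4 CPM and Ctss at 1476 CPM. The monocyte list summed to 528.9 CPM (interval 490.7 to 569.2) in the Ltf-low cells, 136.5 CPM (interval 118.6 to 156.4) in the Ltf-high cells and 2756 CPM in the other cells. Prg2, the most abundant marker of the other cells, was lower in the Ltf-low cells, at 95.1 against 273.1 CPM (log2 ratio -1.43). That difference rested on the 4 Ltf-high cells with fewer than 20 S100a8 UMIs, without which the ratio was -0.07.

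Several of the monocyte genes lay unevenly, in cells with a low share of S100a8. In 56 of the Ltf-low cells (8.50%) S100a8 made up less than 4% of the UMIs, and 13 of the Ltf-high cells did so. Those 56 cells held 12.9% of all UMIs of the group. They held 71.5% of the Ms4a6c UMIs of the group, 69.3% of the Wfdc17, 57.4% of the Clec4n and 34.0% of the Ctss UMIs, but 2.98% of the Ngp and 1.99% of the Retnlg UMIs. Csf1r did not follow, with 14.7% of its UMIs in them. In the 19 cells under 2% the monocyte list stood at 1900 CPM and Retnlg at 298.0 CPM, and in the 312 cells at 8% or more they stood at 255.1 and 10088 CPM. The rule thus took in a small set of cells rich in monocyte genes and poor in Retnlg. What part droplets with more than 1 cell have in it was not tested beyond Scrublet, a doublet caller, which marked 2 of the 659 cells and 3 of the 648.

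**Figure D5:**
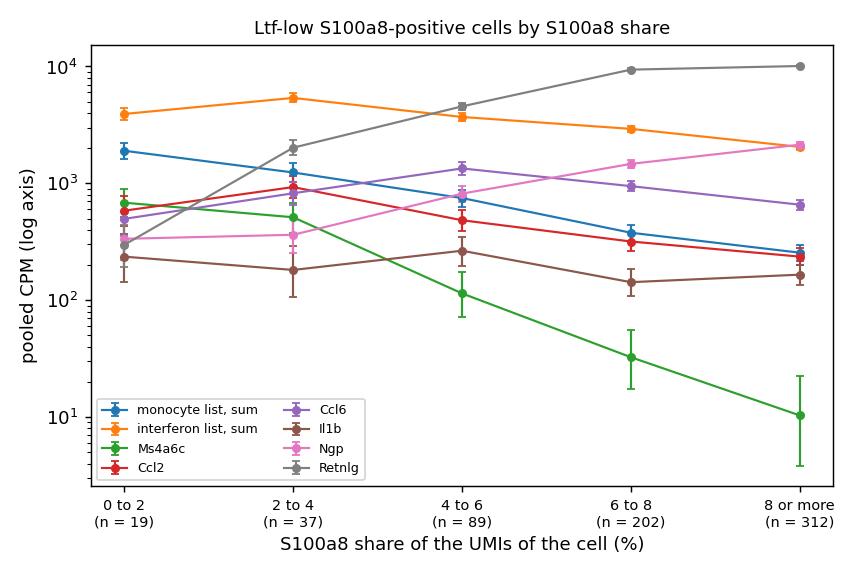
Pooled CPM (log axis) in the Ltf-low S100a8-positive cells by the S100a8 share of the UMIs of the cell (%), with exact Poisson intervals and the number of cells in each step. Ms4a6c goes from 682.9 CPM under 2% to 10.3 CPM at 8% or more and Retnlg from 298.0 to 10088 CPM, while Il1b lies between 142.7 and 265.1 CPM.

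Without those 56 cells, in the 603 Ltf-low cells at 4% or more, 53 genes were at least 2-fold higher and 43 lower than in the Ltf-high cells. Each of the 15 largest rises was still at least 2-fold higher, from 1.23 for Wfdc17 to 2.35 for Apoc1 on the log2 scale, with Ms4a6c at 35.0 and Ccl2 at 304.6 CPM. Ngp had a log2 ratio of -3.88, Camp of -2.81, Ccl6 of 1.74, Il1b of 1.57 and Ifit3 of 1.68. Prtn3 turned from 0.45 to -1.58, and Mmp8 and Mmp9 lay at 0.06 and 0.04. The monocyte list was at 378.0 CPM and the interferon list at 2619 CPM. Among cells of both groups with 8% or more, the differences of the following were smaller than over all cells. Ccl2 was at 236.1 CPM in the Ltf-low and 50.5 CPM in the Ltf-high cells, and Ifit3 at 165.5 and 77.8 CPM. The interferon list was at 2051 and 1244 CPM, the monocyte list at 255.1 and 120.2 CPM and Csf1r at 60.3 and 41.4 CPM.

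The chemokines and cytokines of activated neutrophils were partly higher. Of 12 genes 10 passed the level, 2 were at least 2-fold higher and 0 lower, with a median log2 ratio of 0.69. Besides Il1b, Tnf was called, at 43.8 against 16.5 CPM. Ccl3, a chemokine of activated leukocytes, was at 1226 against 662.2 CPM, Cxcl2 at 127.0 against 90.4 CPM, and Il1rn, the interleukin-1 receptor antagonist, at 63.1 against 100.3 CPM.

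The 48 h library, which shares no cell with the rule, shows what low Ltf went with earlier in the culture. There 4132 genes passed the level, and 240 (5.81%) were at least 2-fold higher and 113 (2.73%) lower in the cells with low Ltf. The Ltf-high cells were not held to the S100a8 limit, and their lower quartile of S100a8 was 17 UMIs at 48 h and 145 UMIs at 96 h. The cells with low Ltf at 48 h had more of the early programme than their Ltf-high neighbours. The primary granule list was 1.89-fold higher (interval 1.77 to 2.02) and the G2/M list 2.49-fold higher (interval 2.24 to 2.77), where at 96 h the ratios were 0.676 and 0.929. The tertiary list was lower at 48 h, with a ratio of 0.568 (interval 0.478 to 0.678), and so was the late list, at 0.710 (interval 0.671 to 0.751), where at 96 h they were 0.910 and 1.10. The secondary list was lower at both times, with ratios of 0.507 at 48 h and 0.339 at 96 h. The difference between the times has no replicates and was not tested.

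For genes called at both times the directions were mostly shared. Of the 87 genes higher at 96 h, 52 passed the level at 48 h, 20 of them at least 2-fold higher and 1 lower. Their median log2 ratio at 48 h was 0.75. Of the 51 lower genes all passed, with 21 lower and 1 higher, and a median of -0.81. Of all genes at 48 h, 5.81% were called higher and 2.73% lower. Ngp (3017 against 19636 CPM), Camp (2005 against 4778 CPM) and Ly6g (2.71 against 126.6 CPM) were lower at 48 h too. Il1b was at 1.36 and 4.52 CPM and Ccl2 at 1.36 and 0 CPM, so neither was far from 0 there.

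Genes were also ordered by their change over the first 48 h of the culture, without cells of 96 h. Of the genes that fell at least 2-fold from 0 h to the 48 h cells with S100a8, 373 passed the level at 96 h, of which 18 (4.83%) were higher in the Ltf-low cells and 0 lower, with a median log2 ratio of 0.38. Of those that rose over that time, 649 passed, 15 (2.31%) higher and 32 (4.93%) lower, with a median of 0.03. Of those within 2-fold over that time, 2108 passed, 15 (0.71%) higher and 13 (0.62%) lower, with a median of 0.20. Genes called in the falling and rising sets were thus more often on the side of 0 h than of 48 h in the Ltf-low cells. The rising genes that were lower take in Ngp, Camp, Lcn2 and Anxa1, so they partly repeat the difference of the secondary granule list. Without the 56 cells of low S100a8 share, the falling genes counted 7 higher and 0 lower and the rising genes 10 higher and 27 lower. The later step, from 48 h to the mean of both 96 h groups, does use cells of 96 h. Of the genes that rose over it, 395 passed, 26 (6.58%) higher and 9 (2.28%) lower in the Ltf-low cells. Of those that fell over it, 406 passed, 10 (2.46%) higher and 13 (3.20%) lower.

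On the measurements available, the Ltf-low cells at 96 h lacked the primary granule and division transcripts that went with low Ltf at 48 h, had as much Mmp8 and Mmp9 as the Ltf-high cells, and carried more Il1b, Ccl6, Clec4d and interferon response transcripts and less Ngp, Camp, Ly6g and Cebpe. The secondary granule stage comes before Il1b and Ccl6 in the order given above and after the primary granule stage. Of the 20 late genes, however, 4 were called, and the list median of 0.24 lay close to the 0.19 of the median gene. Of the genes called at 96 h that passed the level at 48 h, 20 of 52 higher and 21 of 51 lower ones were called the same way there. The lower share of Ltf-low cells with Retnlg, the higher level of genes that fell over the first 48 h and the monocyte-type transcripts stand beside these values. So do the genes that rose after 48 h, of which more were called higher than lower in the Ltf-low cells. That set was itself chosen with the 96 h levels of both groups. Over all genes, too, more were called higher (2.27%) than lower (1.33%).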

How the data were processed

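The authors sorted live cells, prepared droplet libraries that read the 3′ end of transcripts, aligned reads with Cell Ranger to the GRCm38 (mm10) mouse assembly and deposited whole-number UMI counts per gene and barcode, in 1 table of 7821 barcodes and 27998 gene columns. All values were whole and none was below 0 on checking, and barcodes were assigned to libraries by the suffix that the labels give. The limits on a cell were those of the study, from 200 to 6000 genes with a mitochondrial part (13 columns) of 10% or less. Kept cells numbered 473 to 1510 and summed to 3524285 to 5589486 UMIs per library. Median depths went from 2043.5 UMIs in the HOXA9 OFF 96 h library to 8660 in the HOXA9 OFF 0 h library. The limits removed 927 of the 1400 barcodes of HOXA9 OFF at 0 h but 3 of the 1513 at 96 h.

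UMIs were summed over the cells of a group and divided by their total (CPM). Ratios are log2(CPM + 10), for genes whose mean over both groups reached 20 CPM, and called means at least 2-fold. Folds and ratios of list sums carry no pseudocount. Intervals are exact 95% Poisson for CPM and exact 95% binomial (Clopper-Pearson) for ratios and shares of cells, and cover counting error only. For shares, cells were thinned to 1000 UMIs with a fixed seed, leaving out 16 Ltf-low, 14 Ltf-high and 6 other cells that were shallower. No test was made, with 1 library per group. The ratio step was checked on simulated counts.

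Named genes are members of 21 gene lists, plus the 15 largest rises and 15 largest falls among genes with at least 50 CPM in 1 group, at least 2-fold and in the same direction in cells of 1500 to 3000 UMIs and with Ltf at 0. Bst1 and the genes next to Ltf and Camp were singled out after their values were seen. The members and lists were chosen with earlier results of these data known. Alternatives changed the scaling, weights, pseudocount, limits, depth and doublets (Scrublet in Scanpy 1.11.5). The alternative that keeps Ltf-low cells with at least 4% of UMIs in S100a8 was chosen after seeing the data. Promoter windows and gene positions are from RefSeq on GRCm38.p6, the build of the counts. Of the 15 rises and 15 falls, 10 and 14 had a window. Cebpd has no column in the table. Single values of some list genes are not reported here.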

Additional observations from a re-analysis of the deposited data

Results flagged for a closer look

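Bst1 and Mpo were at least 2-fold apart at both times in opposite directions, so that low Ltf went with more of the transcript at one time and less at the other. The difference between the times was not tested.

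Bst1, an ADP-ribosyl cyclase of the myeloid cell surface, was higher in the Ltf-low cells at 96 h (log2 ratio 1.06, 138.9 against 61.3 CPM, from 187 and 93 UMIs in 142 and 79 cells) and lower at 48 h (log2 ratio -1.38, 9.49 against 40.7 CPM, from 7 and 9 UMIs). The 48 h value rests on few molecules.

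Mpo was lower in the Ltf-low cells at 96 h (log2 ratio -1.45) and higher at 48 h (log2 ratio 2.08, 626.3 against 140.1 CPM). At 96 h it was found in 3 Ltf-low and 2 Ltf-high cells, and 53 of the 54 Ltf-high UMIs lay in 1 cell.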

How the results depend on the processing

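Of the 87 genes at least 2-fold higher in the Ltf-low cells and the 51 lower, the numbers became 57 and 79 with the median gene set to 0, 159 and 72 with a pseudocount of 1 CPM, 28 and 19 with one of 50 CPM, 147 and 67 against cells with at least 10 Ltf UMIs, 450 and 142 at 1.5-fold, 8 and 8 at 4-fold, and 53 and 43 for Ltf-low cells with at least 4% of UMIs in S100a8, an alternative added after seeing the data. The share of higher genes among those called was 63.0%, and 41.9% with the median gene set to 0. The other settings gave 63 to 129 higher and 42 to 66 lower genes. The number of Ltf-low cells was 710 with an S100a8 limit of 10 UMIs and 625 with 60 UMIs. The share with 5 or more interferon UMIs (22.2% and 7.57%) was 39.8% and 22.2% without thinning and 32.6% and 12.8% with 1500 UMIs, and that with 2 or more monocyte list UMIs (9.02% and 1.10%) was 20.6% and 5.40%, and 16.96% and 1.66%. Mpo turned to 0.61 against cells with at least 10 Ltf UMIs, 0.15 in cells of 1500 to 3000 UMIs and 0.017 with limits as shares of UMIs, settings that leave out the 1 cell with 53 of its UMIs. The primary granule median went from -1.58 to 0.61 and the tertiary one from -0.28 to 0.05. The secondary granule median stayed between -1.38 and -1.06, the interferon median between 0.84 and 1.22 and the late median between 0.03 and 0.34. Except for Mpo, no named gene called in either direction changed sign under these alternatives. For the largest rises and falls part of this was fixed beforehand. Their choice required the same direction in cells of 1500 to 3000 UMIs and with Ltf at 0. No paired analysis was possible because each group is 1 library and no result comes from a test. Depth limits genes under about 20 CPM, and counting intervals leave out the spread between cultures, clones and cells.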
